A study of Homo sapiens with 6 samples.

Results

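Short noncoding RNA genes transcribed by RNA polymerase III were examined for R-loop peaks in HEK293T cells. The genes were RMRP, RPPH1, RN7SK, RN7SL1, RN7SL2 and VTRNA1-1, taken by their name in GENCODE release 44 mapped to GRCh37, and a peak was counted for a gene when it covered at least 1 bp of the gene record or of the 1000 bp on either side. Of the 6 genes, 4 were matched by name among 63585 genes of chromosomes 1 to 22 and X, namely RMRP, RN7SK, RN7SL2 and VTRNA1-1. The names RPPH1 and RN7SL1 had no match in this annotation, and both genes were left out of the counts. The matched genes held 3 of the 10231 R-loop peaks of untreated cells and 4 of the 11085 peaks of treated cells.

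HEK293T is a human embryonic kidney line, and all samples were of the wild-type genotype. Cells were either untreated or kept for 3 h with 10 μM N2-heptynyl-dG, a deoxyguanosine with an alkynyl chain on the exocyclic amine that faces the minor groove of DNA. Both groups then received 5 mM N3-kethoxal for 10 min, which reacts with guanine in single-stranded DNA, and the labeled DNA was sequenced with its strand kept (spKAS-seq). The series has 2 untreated samples, 2 treated samples and 2 inputs of untreated cells, and the data used here are 1 list of R-loop peaks per condition, each line giving a position and a strand. With 1 list per condition there is no replicate error, the depth is unknown, and no difference between the conditions was tested.

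An R-loop forms when an RNA pairs with its template strand and leaves the other DNA strand single, and it is best known at starts and ends of genes of RNA polymerase II. RNA polymerase III makes short, abundant and untranslated RNAs, reads promoters that lie either upstream of the gene or inside it, and stops at a run of T in the nontemplate strand. The RNAs examined here are the catalytic RNA of RNase MRP (RMRP), the RNA that holds the elongation factor P-TEFb inactive (7SK, from RN7SK), the scaffold of the signal recognition particle (7SL, from RN7SL1 and RN7SL2), the catalytic RNA of RNase P (RPPH1) and a vault RNA (VTRNA1-1).

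The sequences of RMRP, RN7SK and VTRNA1-1 show where the peaks fell on these genes. They were read from GRCh37 on the gene strand, 5′ to 3′, with bases under a same-strand peak of either list in capitals. RMRP was covered throughout, RN7SK was covered throughout in treated cells only, and VTRNA1-1 was not covered. For RN7SK the first 300 of 331 bases are given.
RMRP, chr9:35657751-35658014, minus strand: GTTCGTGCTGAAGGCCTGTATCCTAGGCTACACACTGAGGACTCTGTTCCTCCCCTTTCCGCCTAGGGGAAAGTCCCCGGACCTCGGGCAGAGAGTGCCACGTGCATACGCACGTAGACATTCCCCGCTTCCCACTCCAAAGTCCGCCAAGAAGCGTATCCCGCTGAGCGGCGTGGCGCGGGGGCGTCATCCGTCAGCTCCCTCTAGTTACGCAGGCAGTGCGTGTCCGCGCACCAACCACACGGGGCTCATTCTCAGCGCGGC
RN7SK, chr6:52860418-52860748, plus strand: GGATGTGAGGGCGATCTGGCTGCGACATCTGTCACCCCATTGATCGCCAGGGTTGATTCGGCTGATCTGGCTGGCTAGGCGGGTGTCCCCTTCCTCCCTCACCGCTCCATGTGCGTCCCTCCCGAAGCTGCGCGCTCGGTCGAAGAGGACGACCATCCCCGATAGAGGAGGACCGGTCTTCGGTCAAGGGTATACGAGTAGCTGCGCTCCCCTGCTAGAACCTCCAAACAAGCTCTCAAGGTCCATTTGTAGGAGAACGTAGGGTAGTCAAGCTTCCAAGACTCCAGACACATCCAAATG
VTRNA1-1, chr5:140090860-140090958, plus strand: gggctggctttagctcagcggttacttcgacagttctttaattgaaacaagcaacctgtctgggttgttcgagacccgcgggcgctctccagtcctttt

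The 60 bases before each start are shown next, since upstream promoter elements of such genes can lie there. Every TATA within the last 40 bases before the start, searched on the gene strand, is in capitals, and overlapping matches are joined.
RMRP, before the start: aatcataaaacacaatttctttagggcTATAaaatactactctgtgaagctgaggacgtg
RN7SK, before the start: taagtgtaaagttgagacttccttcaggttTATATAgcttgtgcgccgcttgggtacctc
RN7SL2, before the start: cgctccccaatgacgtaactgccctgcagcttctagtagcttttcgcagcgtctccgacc
VTRNA1-1, before the start: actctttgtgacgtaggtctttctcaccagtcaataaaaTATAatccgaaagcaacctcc
TATA began 33 bases before the start of RMRP, 30 bases before that of RN7SK and 21 bases before that of VTRNA1-1, counted from the first T of the marked letters, and it was not found in this window for RN7SL2. Among 9706 noncoding genes of at most 500 bp, 16.7% held TATA there. The octamer ATTTGCAT, the word bound by POU-domain factors, was searched on both strands of the 300 bases before the start. It was found at RMRP only, 217 bases before the start, and 2.75% of the short noncoding genes held it.

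The 3′ ends are shown with the last 4 bases of each record and the 20 bases after it, and runs of at least 4 T are in capitals.
RMRP, end: cggctgTTTTTTgttcccgagacc
RN7SK, end: cTTTTgacccattacccatctaag
RN7SL2, end: gtctcTTTTgcccccctccctcat
VTRNA1-1, end: TTTTacctctctgggcggttcgag
All 4 genes held such a run, as did 21.7% of the short noncoding genes in the same window searched for TTTT. All 3 genes with a peak, RMRP, RN7SK and RN7SL2, had a peak that reached beyond this run of T. These peaks were wider than the gene records, so a peak over a record must pass an end of it. How often peaks at other short noncoding genes pass a run of T was not counted. The sequence matches shown above describe letters in a window and not the binding of a factor.

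An untreated peak lay at 2 of the 4 matched genes, RMRP and RN7SL2, and a treated peak at 3 of 4, RMRP, RN7SL2 and RN7SK. Among all genes, 17.6% had an untreated peak and 18.6% a treated peak by the same count. Short genes offer little length for a peak to fall on, so noncoding genes of at most 500 bp are the nearer background, and among these 4.04% had an untreated peak and 4.43% a treated peak. This background was taken by length and gene type, and annotated copies of RNA genes were not removed from it. Among 20090 protein-coding genes, which are longer, the shares were 39.3% and 41.3%. The members were listed with earlier results of these data known, and 4 genes are too few to carry a share.

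Every peak counted for the 4 genes lay on the strand of the gene, in both lists. Strand is used here as the deposited lists give it, and the sources used here do not state whether it names the displaced strand or its partner. A peak directly over the record on the gene strand was found at 1.52% of the short noncoding genes in the untreated list and 1.68% in the treated list. Of the short noncoding genes with any peak within the same 1000 bp, 69.1% (271 of 392) in the untreated list and 67.9% (292 of 430) in the treated list had one on the gene strand. Where a peak lay over the record itself, the shares were 79.6% (148 of 186) and 79.5% (163 of 205).

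**Figure D1:**
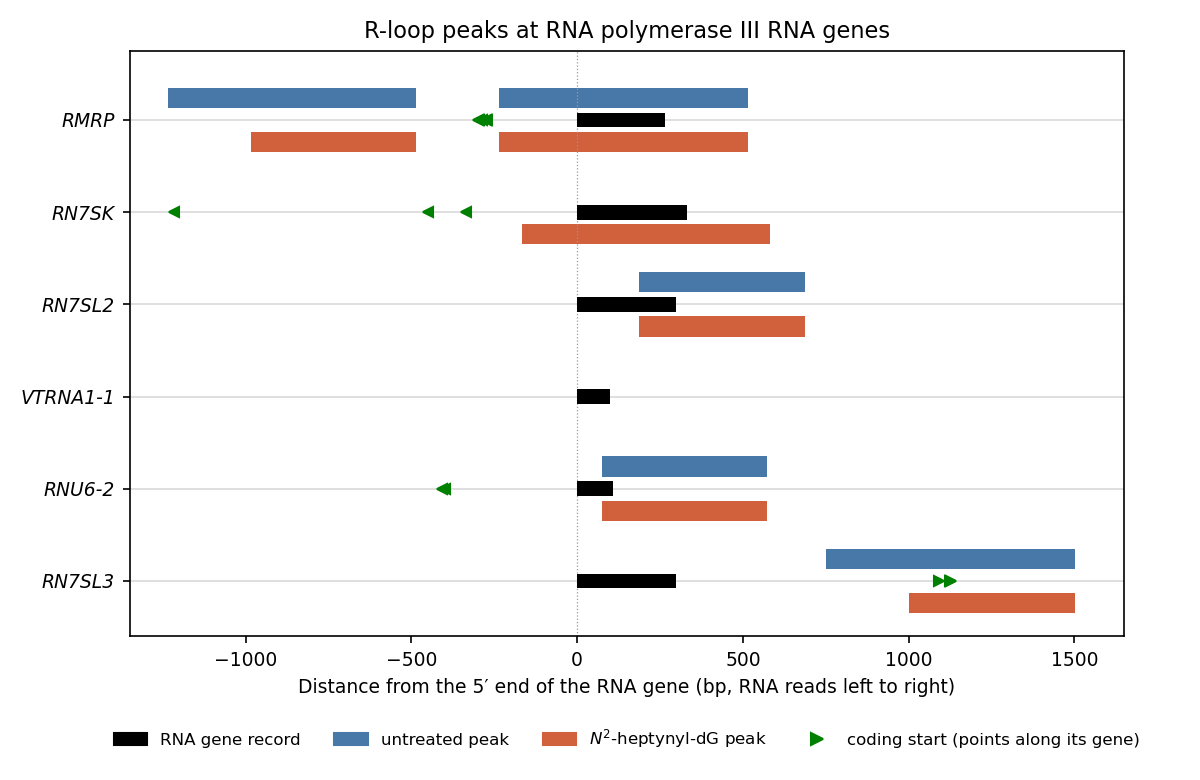
Position of R-loop peaks around the 4 matched genes and around RNU6-2 and RN7SL3, in bp from the 5′ end of each gene with the RNA reading left to right (black, gene record; blue and orange, untreated and treated peaks; green arrowheads, coding starts pointing along their gene). RMRP has 1 peak over the gene and 1 upstream in each list, RN7SK has a treated peak only, RN7SL2 and RNU6-2 have peaks that begin inside the gene, and VTRNA1-1 has none.

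RMRP, annotated as a ribozyme (ENSG00000277027.1_1), encodes the RNA of RNase MRP, which processes ribosomal RNA precursors. Its record is 264 bp long on the minus strand of chromosome 9. The same peak was present in both lists, at chr9:35657500-35658249 on the minus strand. This peak was 750 bp wide, 2.84 times the length of the gene, and it covered 100% of the record with 235 bp upstream of the start and 251 bp beyond the end. The extension was therefore nearly even on both sides, and the upstream part held the TATA word shown above.

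A second peak lay upstream of RMRP, also on the minus strand, at a gap of 485 bp from the record. It spanned chr9:35658500-35659249 in untreated cells, a width of 750 bp. In treated cells it spanned chr9:35658500-35658999, a width of 500 bp. The border nearer to RMRP was the same in both lists and the far border was 250 bp closer in treated cells, which is 1 step of the grid on which the authors' peaks lie, since 99.94% of untreated and 99.97% of treated peaks had widths that are multiples of 250 bp.

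RMRP lies between coding genes that could share these peaks. The nearest coding start was that of CCDC107, a coiled-coil protein gene on the plus strand, at position 35658287 and 273 bp from the start of RMRP, with 5 annotated coding starts within 2000 bp. The RMRP and CCDC107 starts face away from each other, and no coding start lay under either of the RMRP peaks. The upstream peak overlapped the CCDC107 record on the opposite strand and the ARHGEF39 record, a gene of a guanine nucleotide exchange factor, on the same strand. The upstream peak thus lay at the 3′ end of ARHGEF39 on the same strand, and whether it belongs to that transcript was not tested.

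RN7SK encodes 7SK RNA, the noncoding scaffold that sequesters P-TEFb with HEXIM proteins. The annotation holds 2 overlapping records of this name (ENSG00000202198.1 and ENSG00000283293.1_3), taken as 1 gene of 331 bp on the plus strand of chromosome 6. In treated cells a peak spanned chr6:52860251-52861000 on the plus strand, and in untreated cells no peak was listed within 1000 bp. The treated peak was 750 bp wide, 2.27 times the gene, and covered 100% of the record with 167 bp upstream and 252 bp downstream. The nearest untreated peak lay 14667 bp away, on the minus strand.

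The peak at RN7SK was thus listed in 1 of 2 lists, and with 1 list per condition an effect of treatment cannot be tested. Among the short noncoding genes, 1.01% (98) had a treated peak and no untreated peak, and 0.618% (60) had the opposite. Of all treated peaks of 750 bp, the width at RN7SK, 29.3% (849 of 2899) had no untreated peak on the same strand, and of untreated peaks of 750 bp 25.1% (615 of 2446) had no treated partner. Since the lists give no height, whether the untreated cells had signal just under the calling threshold at RN7SK was not tested.

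The nearest coding start to RN7SK was that of GSTA4, a glutathione S-transferase gene on the minus strand, at position 52860082 and 336 bp from the start of RN7SK, with 4 annotated coding starts within 2000 bp. GSTA4 is transcribed away from RN7SK, and none of its starts lay under the peak. RMRP and RN7SK therefore had the same arrangement, with a coding gene starting in the opposite direction 273 bp and 336 bp upstream. At both genes, the peak over the RNA gene was listed on the strand of the RNA gene and not on that of the coding neighbor, with the meaning of the listed strand not stated.

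RN7SL2 (ENSG00000265150.1) encodes 7SL RNA, on which the proteins of the signal recognition particle assemble to bring ribosomes to the endoplasmic reticulum. Its record, chr14:50329271-50329567, is 297 bp long on the minus strand. Both lists held an identical minus-strand peak at chr14:50328882-50329381. It was 500 bp wide, 1.68 times the gene, and began inside the gene. It covered the last 111 bp (37.4% of the record) with 0 bp upstream of the start and 389 bp beyond the end. Most of this peak was thus downstream of RN7SL2, in sequence outside the gene.

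The nearest coding start to RN7SL2 was that of NEMF, a gene of the ribosome-associated quality control pathway, at a distance of 10028 bp, and 0 coding starts lay within 2000 bp. The record and the peak both overlap the noncoding gene ENSG00000282885, a lncRNA record on the same strand. The part of the peak past the end of RN7SL2 can come from either transcript on this strand, and their shares cannot be told apart from positions.

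VTRNA1-1 (ENSG00000199990.1) encodes a vault RNA, a small RNA bound by the cytoplasmic vault particle. Its record of 99 bp lies on the plus strand of chromosome 5 and overlaps the lncRNA record ENSG00000292256. No peak lay within 1000 bp in either list. The nearest peak was 10338 bp away in both lists, at chr5:140079522-140080521 in untreated cells and chr5:140079772-140080521 in treated cells, around the start of the coding gene ZMAT2. A missing peak means only that none was listed there, since the depth behind the lists is unknown.

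The 2 genes that were not matched were looked at through their surroundings, with neighbors taken from a RefSeq table of another assembly, GRCh38.p14. RefSeq places RN7SL1, of 299 bp, over the coding gene RPS29. A copy of RN7SL2 with 98.7% identity and 4 mismatches was found at chr14:50053298-50053594 on the plus strand, overlapping the RPS29 record. No peak lay within 1000 bp of this copy. The nearest peak was 3666 bp away in the untreated list and 3416 bp away in the treated list. RefSeq places RPPH1, of 341 bp, 224 bp from PARP2, and the 1000 bp on either side of the PARP2 starts held no peak, with the nearest 5104 bp away in untreated and 9123 bp away in treated cells. These places stand in for the genes and were not counted with them.

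Base composition was compared with that of all peaks. GC skew, the difference between G and C counts divided by their sum, was read on the peak strand. All 3 genes with peaks had peaks of negative skew, which were therefore richer in C than in G on the strand of the gene. The RMRP peak over the gene had a GC content of 54.5% and a skew of -0.12, and 12.0% of all untreated peaks and 14.6% of all treated peaks had a lower skew. The RN7SL2 peak had a GC content of 47.4% and a skew of -0.10, and 16.9% of untreated and 20.1% of treated peaks had a lower skew. The RN7SK peak had a GC content of 47.6% and a skew of -0.03, with 42.9% of treated peaks lower. Over all peaks, the untreated list had a median skew of 0.0 and a median GC content of 56.2%, and the treated list had -0.01 and 57.6%. On the listed strand, which is the strand N3-kethoxal can label only if the lists name the displaced strand, the number of G under these peaks was 180 in 750 bp at RMRP, 173 in 750 bp at RN7SK and 107 in 500 bp at RN7SL2.

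Of the records themselves, RN7SL2 was G-rich on its own strand, with a skew of 0.12, while RMRP had a skew of -0.11 and RN7SK of -0.03. The peak at RN7SL2, most of which lay beyond the gene, therefore differed in sign from the gene itself. VTRNA1-1, without a peak, had equal numbers of G and C.

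Sequence that recurs in the genome limits where a short read can be placed, and the members differed widely in this. The methods give Bowtie2 with its default setting, which reports 1 place for a read that fits several. Each gene was read as overlapping words of 31, 50 and 100 bases, and the words found again elsewhere in GRCh37 on either strand were counted. For RMRP, 0.427% of words of 31 bases and 0% of longer words were found again, so little of its sequence recurred. For RN7SL2, 95.9% of words of 31 bases, 87.9% of 50 and 83.3% of 100 were found again, and the most frequent word of 31 bases occurred at 41705 places. Alu repeats, the most abundant short repeats of the human genome, derive from 7SL RNA. For RN7SK, 89.0%, 76.6% and 51.3% were found again. VTRNA1-1 stood with RMRP, with 8.70% of words of 31 bases and 0% of 50.

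Of the peaks over the genes, those at RN7SK and RN7SL2 held a smaller share of recurring words than the gene itself, and that at RMRP a larger share at 31 bases. In the RMRP peak over the gene, 8.47% of words of 31 bases and 0% of longer words recurred, and in the upstream peak 0% did. In the RN7SL2 peak 15.3%, 8.65% and 0% of words of 31, 50 and 100 bases recurred, and most of that peak lay outside the gene. The RN7SK peak kept the most, with 54.2%, 35.2% and 18.3%. Peak and gene thus differed most at RN7SL2, where the covered part lay at the end of the record.

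**Figure D2:**
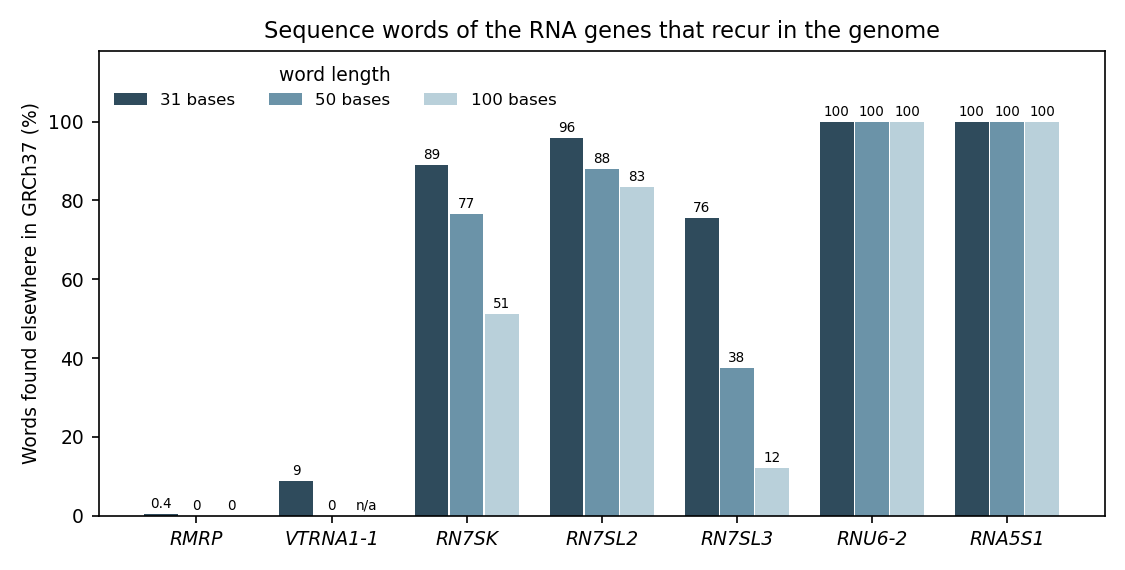
Share of overlapping words of 31, 50 and 100 bases of each RNA gene that occur again elsewhere in GRCh37, in percent, for the 4 matched genes and for RN7SL3, RNU6-2 and RNA5S1. RMRP and VTRNA1-1 stay below 10%, RN7SL2 stays above 80% at all lengths, and RNU6-2 and RNA5S1 are at 100%; n/a marks the 99 bp gene VTRNA1-1, which has no word of 100 bases.

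Near-complete copies were searched with BLAST, at 90% identity or more over 95% of the gene or more. RMRP and VTRNA1-1 had none. RN7SK had 3, the pseudogenes RN7SKP187, RN7SKP118 and RN7SKP48, each at most 90.9% identical and none with a peak in either list. RN7SL2 had 2, the copy overlapping RPS29 and RN7SL3, which was 96.9% identical with 9 mismatches. The sequence closest to RN7SL2 thus had no peak nearby in either list.

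Annotated copies by name showed few peaks. Of 843 RN7SL pseudogenes, 5 had an untreated peak within 1000 bp (0.593%, 95% Wilson interval 0.254 to 1.38%) and 9 had a treated peak (1.07%, 0.563 to 2.02%). The intervals cover counting error only. A peak over the record itself was found at 0 of 843 in untreated cells, for which the Wilson interval reaches 0.454%, and at 1 in treated cells, RN7SL472P. Of 291 RN7SK pseudogenes, 1 had a peak in each list, RN7SKP114, at 0.344%, on the opposite strand and beside the record. None of the 5 RMRP pseudogenes had a peak. Of the copies with a peak, 2 of 6 in the untreated and 5 of 10 in the treated list had no coding start within 5000 bp. Of all copies, with or without a peak, 711 of 843 RN7SL and 268 of 291 RN7SK pseudogenes had none, which is a larger share. The shares of the RN7SL and RN7SK copies lay below the 4.04% and 4.43% of all short noncoding genes, from which copies were not removed.

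**Figure D3:**
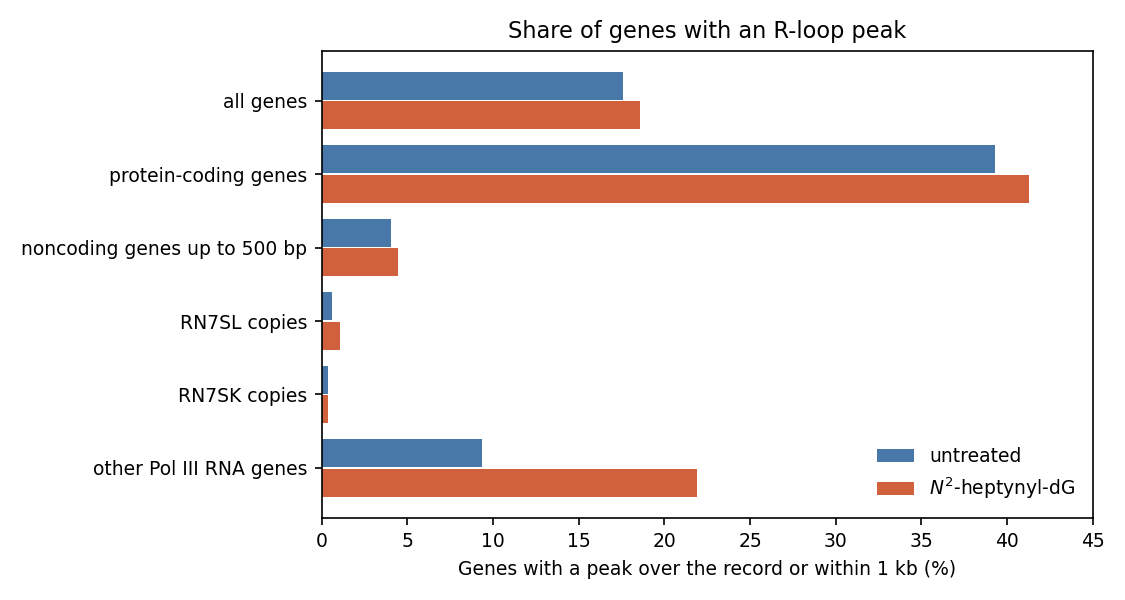
Share of genes with an R-loop peak over the record or within 1000 bp, in percent, in the untreated (blue) and treated (orange) list, for all genes, protein-coding genes, noncoding genes of at most 500 bp, the 843 RN7SL and 291 RN7SK copies and 32 other RNA polymerase III genes. The copies lie near 1% or below, and the other RNA polymerase III genes are at 9.38% and 21.9%, with 5S genes of 1 array making up the difference.

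Other RNA genes of RNA polymerase III were taken from a list of 32, all matched by name. An untreated peak lay at 3 of them (9.38%), RNU6-2, RN7SL3 and RNA5S1, and a treated peak at 7 (21.9%), these 3 and RNA5S6, RNA5S9, RNA5S16 and RNA5S17. Among short noncoding genes the shares were 4.04% and 4.43%, and 1.01% had a treated peak only, as had the last 4 genes named. No peak lay at 25, which include the Y RNA genes RNY1, RNY3, RNY4 and RNY5, the vault RNA genes VTRNA1-2, VTRNA1-3 and VTRNA2-1, the brain cytoplasmic RNA gene BCYRN1 and the minor spliceosomal RNA gene RNU6ATAC. All peaks at the 7 genes lay on the gene strand. Of short noncoding genes with a peak, 69.1% (untreated) and 67.9% (treated) had one on the gene strand.

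RNU6-2 (chr19:1021521-1021627, plus strand), a gene of the U6 spliceosomal RNA, resembled RN7SL2 in where its peak lay. An identical peak of 500 bp, chr19:1021595-1022094 on the plus strand, was listed in both conditions. It covered the last 33 bp of the gene (30.8%) with 467 bp beyond the end, and its skew was -0.07. All of the words of RNU6-2 itself recurred in the genome, against 21.7% of words of 31 bases in its peak. The nearest coding start was that of TMEM259, on the minus strand 399 bp from the RNU6-2 start and outside the peak. Both RN7SL2 and RNU6-2 therefore had a recurring gene and a peak mostly in the more distinct sequence downstream. The other listed U6 genes, RNU6-1, RNU6-7, RNU6-8 and RNU6-9, matched RNU6-2 at 100% identity and had no peak in either list.

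RN7SL3, a further 7SL gene, differed from RN7SL2 in where its peaks lay. Its record (chr14:50320336-50320632, minus strand) was not covered in either list. The peaks counted for it lay 454 bp beyond its end in untreated cells (chr14:50319132-50319881) and 704 bp beyond it in treated cells (chr14:50319132-50319631). Both lay on the minus strand over the start of NEMF, so they have a coding start under them, in contrast to the peaks at RMRP, RN7SK and RN7SL2.

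The 5S ribosomal RNA genes lie in a tandem array on chromosome 1, of which 17 records were on the list. Untreated cells had a peak near RNA5S1 only, at 254 bp beyond the record (chr1:228745261-228745760). Treated cells had a peak near RNA5S1 at 4 bp beyond the record, and peaks at RNA5S6, RNA5S9, RNA5S16 and RNA5S17. RNA5S9 was covered over 116 bp (97.5%) and RNA5S6 over 67 bp (56.3%). RNA5S16 and RNA5S17 shared the peak chr1:228780511-228781010, and RNA5S17 had a second at a gap of 26 bp. All words of the RNA5S1 gene and all words in its peaks recurred, at 31, 50 and 100 bases. A read of this length from the array can fit several of its units, so which 5S gene carried a peak, and whether these genes differed between conditions, cannot be told apart from read placement. The 5S peaks had skews of -0.14 to -0.28.

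The geometry of the member peaks was set beside that of other short noncoding genes. In the untreated list 148 pairs of a short noncoding gene and a peak over it on the gene strand were found, and in the treated list 163. The record was covered fully in 79.7% of untreated and 78.5% of treated pairs, as at RMRP and RN7SK but not at RN7SL2. The peak reached farther downstream than upstream in 95 of the 148 untreated and 107 of the 163 treated pairs. It also did so over all 3 members with a peak, but at RMRP the extension was nearly even, with 251 bp against 235 bp. The median peak was 8.82 times the gene in untreated and 7.65 times in treated pairs, against 1.68 to 2.84 for the members. This ratio depends on both peak width and gene length. The members with a peak have records of 264 to 331 bp, and their peaks of 500 and 750 bp were narrower than the median of 1000 bp. The lengths of the other genes were not compared. Of these pairs, 29.7% and 31.3% lay inside a coding gene on the same strand, which was not so for RMRP, RN7SK or RN7SL2.

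The short noncoding genes most like the members were ranked by the Jaccard index of same-strand covered bases within 1000 bp of the 5′ end over both lists, as the median over RMRP, RN7SK and RN7SL2. Of 325 candidates, the 5 highest were the lncRNA gene ENSG00000289057 (0.486), the lncRNA gene ENSG00000286692 (0.477), the snoRNA gene SNORD13 (0.476), the lncRNA gene ENSG00000289331 (0.464) and the U1-type snRNA gene RNVU1-5 (0.444). The index describes positions in 2 lists only.

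Genes of the proteins that bind these RNAs were counted in the same way, and since they are coding genes their background is the 39.3% and 41.3% of coding genes given above. Of 11 protein genes of RNase P and RNase MRP, which share most subunits, 7 had an untreated and 6 a treated peak. Within 1000 bp of the 5′ end the counts were 3 and 5, so the order of the lists turned, beside 25.1% and 27.3% of coding genes counted this way. POP7 and POP1, which encode subunits of both enzymes, had a peak in the untreated list only, as did 5.49% of coding genes. Both peaks lay beyond the gene, by 538 bp at POP7 and 576 bp at POP1. RPP30, another shared subunit, had treated peaks only, and 1 of them lay over its start.

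Of 7 genes of the 7SK particle and P-TEFb, 5 had a peak in both lists. These were HEXIM1 and HEXIM2, which inhibit P-TEFb in the particle, LARP7, which binds the 3′ end of 7SK, and the cyclin genes CCNT1 and CCNT2. MEPCE, which caps 7SK, and CDK9, the kinase of P-TEFb, had no peak in either list. At HEXIM2 the untreated peak lay on the minus strand and the treated peak on the plus strand, which is the gene strand. On the gene strand alone, 2 of the 7 genes had an untreated and 4 a treated peak, beside 29.1% and 30.8% of coding genes counted this way.

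Of 8 genes of the signal recognition particle and its receptor, 3 had an untreated and 6 a treated peak. SRP9, SRP68 and SRPRA had peaks in both lists. At SRP68 and SRPRA the untreated peak lay on the strand opposite to the gene, and a peak on the gene strand was listed in treated cells only. SRP54, which binds signal sequences, SRP19, which helps SRP54 to join 7SL, and SRPRB, a receptor subunit, had treated peaks only. The SRP54 peak was 750 bp wide, the SRP19 peak 1000 bp and the SRPRB peak 500 bp, all on the gene strand, and those at SRP54 and SRPRB lay over annotated starts. SRP14 and SRP72 had none. Of all coding genes, 7.56% had a treated peak only. On the gene strand alone, 1 of the 8 genes had an untreated and 6 a treated peak, beside 29.1% and 30.8% of coding genes. Within 1000 bp of the 5′ end, 2 of the 8 genes had a peak in each list, beside 25.1% and 27.3% of coding genes.

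Of 3 vault protein genes, MVP, the major vault protein, had peaks in both lists, and PARP4 and TEP1 had none.

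Of 18 genes of RNA polymerase III subunits, 13 had an untreated and 12 a treated peak. Within 1000 bp of the 5′ end, 7 of the 18 had a peak in each list, beside 25.1% and 27.3% of coding genes. POLR3C, a subunit of the initiation subcomplex, had an untreated peak only, 93 bp beyond the record. POLR1C, shared with RNA polymerase I, had an untreated peak only, on the opposite strand over the start of LRRC73. POLR1D, likewise shared, had a treated peak only, over an annotated start. Of 20 genes of factors that recruit the enzyme or bind these promoters, 14 had an untreated and 15 a treated peak. BDP1, a subunit of TFIIIB, had untreated peaks only, and POU2F1, which binds the octamer, and GTF3C6, a subunit of TFIIIC, had treated peaks only, both on the opposite strand and outside the record.

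**Figure D4:**
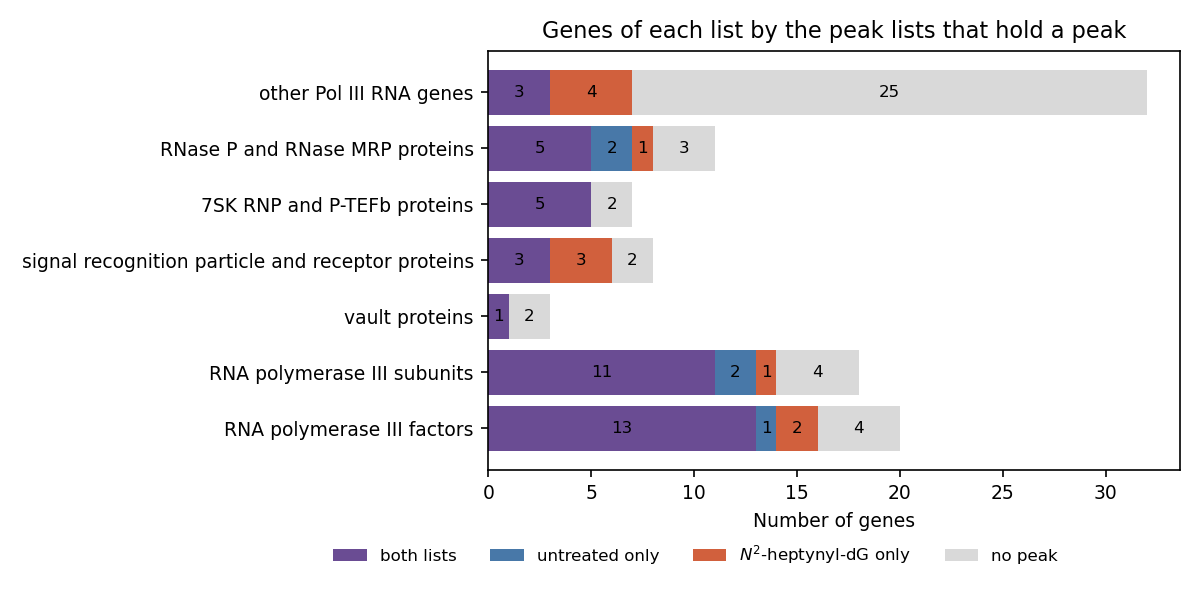
Number of genes of each list with a peak over the record or within 1000 bp in both lists (purple), in the untreated list only (blue), in the treated list only (orange) or in none (grey). The protein lists hold mostly genes with a peak in both lists or in none, and the 32 other RNA polymerase III genes hold 25 without a peak and 4 with a treated peak only, and these 4 are 5S genes.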

How the data were processed

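The deposited data are positions of R-loop peaks (chromosome, start, end and strand) in 2 lists, 1 for untreated and 1 for N2-heptynyl-dG-treated HEK293T cells, with no height, fold or p-value. Per the methods, the authors used Trim Galore, Bowtie2 at its default setting on hg19 (GRCh37) and Picard, and called R-loops with 2 replicates. The submitters' processing notes also name bedtools and deepTools, and versions are not given in the sources used here. In the labels each list belongs to replicate 1. Depth is unknown, as reads were not analysed here.

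Genes came from GENCODE release 44 mapped to GRCh37 (64486 records, 63585 genes on chromosomes 1 to 22 and X after merging overlapping records of 1 name and strand). A gene was called when a peak covered at least 1 bp of its record or of 1000 bp on either side, on either strand. Coordinates are 1-based. Some gene sequences are not reported here. The rule for named genes took the 6 members, coding genes starting within 2000 bp of a member or under its peaks, other RNA polymerase III RNA genes with a peak, listed genes with a peak in 1 list only and the 5 short noncoding genes most like the members. Other listed genes, other coding neighbors and the pseudogenes were named after their values were seen. The members and lists were chosen with earlier results of these data known. No p-value was computed, since 1 list per condition leaves no replicates.

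Overlaps were tested on simulated data, where 200 of 200 planted genes were found and 0 of 9706 calls differed from direct counting. They were also checked with bedtools 2.31.1, which gave the same 11200 and 11843 genes. Tools were BLAST 2.17.0, samtools 1.23.1, pysam 0.24.0, numba 0.67.0, pandas 2.3.3, numpy 2.4.6, scipy 1.17.1 and matplotlib 3.10.9 under Python 3.11.15. Windows, strand, overlap, peak width, background, word length and the copies counted were varied as alternatives.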

Additional observations from a re-analysis of the deposited data

How the results depend on the processing

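Of 70 alternative values, 39 were classed as the same as the value given and 31 as moved. The class of the same was wide, as 46 listed genes with an untreated peak became 31 near the 5′ end within it. The values are counts and shares without a sign, so the 0 that changed direction carries no information. The order of the lists did turn for the RNase P and RNase MRP proteins, as given above. The count of 2 member genes with an untreated peak fell to 1 when 50% of the peak or record had to be covered, to 1 with peaks of at least the median width, and to 0 on the opposite strand alone. The count of 3 with a treated peak fell to 2 under the same coverage rule, to 2 with peaks of at least the median width, and to 0 on the opposite strand alone. The 17.6% of all genes with an untreated peak became 4.04% for short noncoding genes, 39.3% for coding genes, 13.9% without a window, 19.3% at 2000 bp and 22.4% at 5000 bp. For the treated list the 18.6% became 4.43%, 41.3%, 15.0%, 20.3% and 23.6%. The 6 copies with an untreated peak became 0 without a window and 2 away from coding starts, and the 10 with a treated peak became 1 and 5. No paired analysis was possible because 1 list was used per condition. Widths in steps of 250 bp, no peak height, unknown depth and recurring sequence at RN7SK, RN7SL2, RNU6-2 and the 5S genes limit these values. RPPH1 and RN7SL1 were not counted.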
